A study of Mus musculus with 27 samples.

Results

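Neurexins, neuroligins and their partners are the adhesion proteins that hold the 2 sides of a synapse together, and 9 genes of this group were followed here from stem cell to neuron in the adult mouse brain. They were Nrxn2 and Nrxn3 (neurexins), Nlgn1, Nlgn2 and Nlgn3 (neuroligins), Lrrtm1 and Lrrtm2 (leucine-rich repeat proteins), and Cadm1 and Cadm2 (immunoglobulin-type cell adhesion molecules). The rule that names them uses symbols only and picks out the 9 of 45195 genes in the count table whose Ensembl identifiers carry these names. All 9 passed the filter on low counts in every model.

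Adult neurogenesis in the mouse forebrain runs from stem cells in the subventricular zone (SVZ), through neuroblasts that migrate forward, to interneurons of the olfactory bulb. The study sampled it at 4 stages, 2 in the SVZ and 2 in the bulb. Those of the SVZ are the stem cells themselves (NSC) and the early neuroblast (ENB), and those of the bulb are the late neuroblast (LNB) and the neuron. All animals were male mice of 8 to 12 weeks on a C57BL/6 background, given tamoxifen by gavage at 200 mg/kg in 2 to 3 doses. The NSC came from the TiCRY line (Tlx-CreER, Rpl22.HA, eYFP) and both neuroblast stages from the DiCRY line (Dcx-CreER, Rpl22.HA, eYFP). The neuron library names carry the tags Dxc and 4wpi, and no label spells out their line. In these RiboTag animals, Cre puts an HA tag on the ribosomal protein Rpl22, so a stage is defined by the cells in which the Tlx or Dcx promoter drove Cre and by the tissue and time of dissection. Total mRNA came from 200 to 500 sorted eYFP+ cells, in 3 libraries for each stage. Ribosome-bound mRNA came from an anti-HA precipitation of whole SVZ or bulb homogenate, in 2 libraries for NSC, 2 for ENB, 3 for LNB and 2 for neurons. The same precipitation gave 3 SVZ and 3 olfactory bulb control libraries, labelled as ribosome-minus controls of mixed cells and called no-HA controls below; their exact genotype is not spelled out in the labels. Bulb controls 1 and 2 carry the tag 3dpi, as LNB precipitates do, and control 3 carries 4wpi, as neuron precipitates do; all 3 were used against both stages. Each library held tissue of 1 to 2 mice, some neuroblast libraries of the SVZ and the bulb shared an animal, and p-values measure the spread between these libraries.

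Neurexins sit in the presynaptic membrane, and neuroligins and LRRTMs bind them from the postsynaptic side. Nlgn1 is known from excitatory synapses and Nlgn2 from inhibitory ones, while CADMs bind each other across the cleft and also join glia and axons. Neurexin genes use several promoters and extensive splicing, so that transcripts of very different length come from the same locus.

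Each gene lies on its own chromosome (positions from the RefSeq annotation of GRCm38.p6). Nrxn2 (ENSMUSG00000033768) is at chr19:6418756-6533217 and Nrxn3 (ENSMUSG00000066392) at chr12:88722701-90334935. Nlgn1 (ENSMUSG00000063887) is at chr3:25421808-26332866, Nlgn2 (ENSMUSG00000051790) at chr11:69823123-69837784 and Nlgn3 (ENSMUSG00000031302) at chrX:101299179-101321350. Lrrtm1 (ENSMUSG00000060780) is at chr6:77229210-77259915; Lrrtm2 is ENSMUSG00000071862. Cadm1 (ENSMUSG00000032076) is at chr9:47530170-47862280 and Cadm2 (ENSMUSG00000064115) at chr16:66655416-67620917. Lrrtm1 and Lrrtm2 lie inside the genes of the alpha-catenins Ctnna2 and Ctnna1. Of the other overlapping genes with a value, the noncoding A830092H15Rik at the start of Nlgn1 reached 6.37 CPM in total libraries and 19.3 in precipitates, the pseudogene Gm6197 in Nlgn1 7.66 and the noncoding Gm14965 at Nrxn2 4.15. The library kit does not mark strand, so reads of a gene and of one overlapping it on the other strand cannot be told apart.

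Start-site windows were matched for 5 of the 9 genes, 8 windows in all, each running from 250 bases before to 50 bases after an annotated start (RefSeq, GRCm38.p6). The 5 shown here belong to the 4 genes whose total mRNA was called between LNB and neurons. The first and the last window of Nrxn3 mark starts more than a megabase apart and differ in composition, with 2 CpG sites in the first and 16 in the last. Capitals mark matches to CANNTG, the core bound by basic helix-loop-helix factors, or to TTCAGCACC, the left part of the REST site; TAATTA, a homeodomain core, was searched too. All were searched on both strands, and CANNTG and TAATTA read the same on each.
Nrxn3 first window, chr12:88794254-88794553, plus strand: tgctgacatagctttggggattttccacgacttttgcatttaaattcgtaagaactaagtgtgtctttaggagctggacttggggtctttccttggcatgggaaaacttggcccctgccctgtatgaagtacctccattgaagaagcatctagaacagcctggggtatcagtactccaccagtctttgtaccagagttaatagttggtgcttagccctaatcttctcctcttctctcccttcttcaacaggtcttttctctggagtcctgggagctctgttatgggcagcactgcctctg
Nrxn3 last window, chr12:89812233-89812532, plus strand: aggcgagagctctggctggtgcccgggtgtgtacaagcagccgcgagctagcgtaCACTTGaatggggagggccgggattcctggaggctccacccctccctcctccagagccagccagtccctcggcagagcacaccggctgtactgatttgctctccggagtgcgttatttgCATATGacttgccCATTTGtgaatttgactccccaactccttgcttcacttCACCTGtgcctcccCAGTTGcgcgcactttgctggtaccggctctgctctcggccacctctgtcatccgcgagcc
Nlgn1 second window, chr3:26153937-26154236, minus strand: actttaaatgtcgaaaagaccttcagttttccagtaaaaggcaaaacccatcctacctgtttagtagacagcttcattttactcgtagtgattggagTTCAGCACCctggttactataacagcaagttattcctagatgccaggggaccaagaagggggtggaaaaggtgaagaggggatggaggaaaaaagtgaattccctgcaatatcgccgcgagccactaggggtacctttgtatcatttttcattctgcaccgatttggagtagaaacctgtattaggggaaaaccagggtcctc
Lrrtm1 window, chr6:77242227-77242526, plus strand: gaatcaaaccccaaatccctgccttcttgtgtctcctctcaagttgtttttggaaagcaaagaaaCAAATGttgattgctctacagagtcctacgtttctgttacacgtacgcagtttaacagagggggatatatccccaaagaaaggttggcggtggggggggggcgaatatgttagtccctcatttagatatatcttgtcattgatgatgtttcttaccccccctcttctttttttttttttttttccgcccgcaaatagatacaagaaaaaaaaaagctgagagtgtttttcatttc
Cadm2 window, chr16:67620859-67621158, minus strand: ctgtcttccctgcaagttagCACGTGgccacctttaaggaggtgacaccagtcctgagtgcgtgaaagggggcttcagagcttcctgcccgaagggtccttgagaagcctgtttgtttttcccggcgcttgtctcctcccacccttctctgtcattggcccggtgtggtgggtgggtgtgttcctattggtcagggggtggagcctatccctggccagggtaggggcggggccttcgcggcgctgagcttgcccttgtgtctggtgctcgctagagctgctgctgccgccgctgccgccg
CANNTG stood in 72.3% of all 32851 windows of this length, so a single match carries little; the last Nrxn3 window held 5, the first 0, and those of Lrrtm1 and Cadm2 1 each. TTCAGCACC stood in 0.371% of all windows and, among the 8, only in the second Nlgn1 window. TAATTA stood in 5.29% of all windows and in 0 of the 8. A match describes letters and is not a site of binding.

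Total counts ran from 5225929 to 15994635 in the 12 total libraries, from 6325479 to 13316334 in the 9 ribosome-bound ones and from 5960357 to 9120659 in the 6 controls. The stage labels were checked against marker genes. The summed neuroblast markers stood at 11562 to 12485 CPM (counts scaled to a common library total) in total ENB, 5286 to 12513 in LNB, 3163 to 3923 in NSC and 1165 to 1335 in neurons. The summed neuron markers were highest in total neurons, at 7435 to 11278 CPM against 246 to 1903 in the other 9 total libraries. Astrocyte markers were also present in total LNB and neurons, at 1160 to 10144 and 1157 to 5990 CPM, against 5434 to 6989 in NSC and 195 to 985 in ENB; all 10 were detected in every group. LNB libraries 1 and 3 went against their label on stem cell markers, with sums of 4432 and 6755 CPM against 4443 to 5307 in NSC, 884 to 959 in ENB and 861 in LNB library 2. Results with total LNB are therefore also given with library 2 as the only LNB library, whose spread is then assumed to be that of the other groups, an alternative added after the data were seen. Markers of glutamatergic neurons summed to 832 to 1044 CPM in total neurons, 78.0 to 236 in LNB, 1.22 to 14.3 in ENB and 4.29 to 80.7 in NSC. Their part in the changes towards neurons was not tested. Oligodendrocyte precursor markers stood at 858 to 1740 CPM in neurons, 235 to 1566 in LNB, 410 to 782 in ENB and 31 to 185 in NSC. Markers of mature oligodendrocytes were higher, at 1926 to 9148 CPM in total neurons and 1424 to 3023 in LNB. They summed to 1096 to 2849 CPM in ENB and 290 to 3057 in NSC. What RNA of these cells adds to the changes towards neurons was not tested. The ribosome-bound SVZ libraries and their controls held much RNA of other cells. Summed oligodendrocyte markers were 21561 to 22450 CPM in ribosome-bound ENB and 18740 to 23706 in SVZ controls. Striatal neuron markers were 7130 to 7299 and 6473 to 8124 CPM, against 651 to 739 in ribosome-bound LNB. Neuroblast markers summed to 1806 to 3848 CPM in ribosome-bound ENB, overlapping the 1868 to 2589 of ribosome-bound NSC. The SVZ controls held 538 to 737 CPM of them. Neuron markers stood at 10939 to 11538 CPM in ribosome-bound LNB, against 808 to 1903 in total LNB and 5764 to 9122 in bulb controls. What RNA of other cells adds to the ribosome-bound values of either tissue was not tested. The neuron ribosome-bound libraries are grouped by their titles, since another label field calls them total mRNA.

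The number of adhesion genes that changed differed from step to step. A gene was called at a Benjamini-Hochberg adjusted p of at most 0.05 in edgeR's quasi-likelihood test over all genes. From NSC to ENB, 1 of the 9 rose in total mRNA (Nrxn3), where 4.95% of all tested genes rose and 10.1% were called in either direction. From ENB to LNB, 1 rose (Cadm2), against 2.8% of all genes that rose and 3.77% called. From LNB to neurons, 3 rose (Nlgn1, Lrrtm1 and Cadm2) and 1 fell (Nrxn3), where 5.33% of all genes rose, 9.34% fell and 14.7% were called. Between NSC and neurons, the ends of the lineage, 3 rose (Nlgn1, Nlgn2 and Cadm2) and 0 fell. Over all genes, 11% rose there and 23.7% were called. The log2 difference was above 0 for 8 of the 9, where the median over all genes was -0.06. The share of all genes above 0 was not taken. In ribosome-bound mRNA, 0 of the 9 were called from NSC to ENB (8.28% of all genes), 2 rose and 1 fell from ENB to LNB (6.81% rose, 6.05% fell and 12.9% were called), and 0 were called from LNB to neurons (4.13%). At those 2 ribosome-bound steps without calls, 2 and 0 genes had an unadjusted p under 0.05 in edgeR, and DESeq2 called 2 and 0. Over all genes, DESeq2 called 2914 of 17941 and 1755 of 18310 at these steps. The plot of changes by step shows these values side by side.

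**Figure D1:**
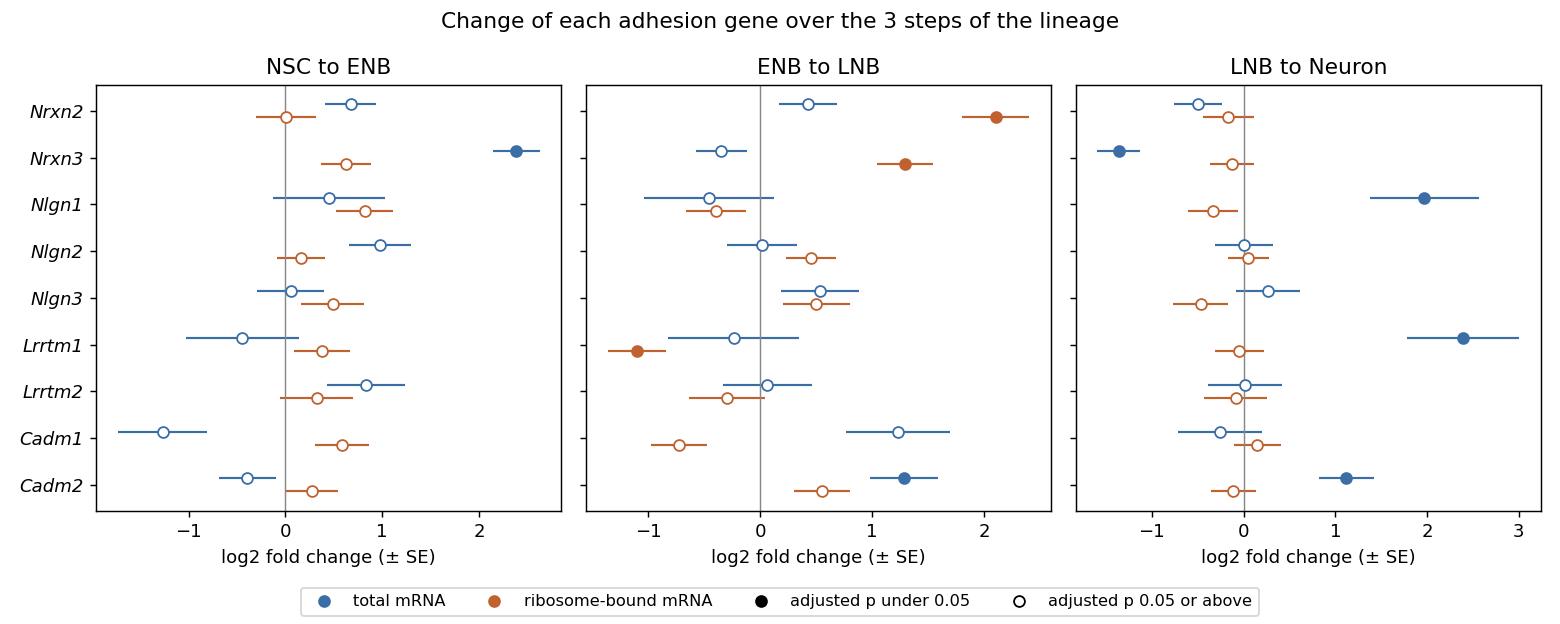
Log2 fold change with its standard error (horizontal axis) for each of the 9 genes (vertical axis) at the 3 steps of the lineage, in total and in ribosome-bound mRNA; filled points passed an adjusted p of 0.05 in edgeR. Nrxn3 moved by 2.38 from NSC to ENB and by -1.36 from LNB to neurons in total mRNA, and by 1.29 from ENB to LNB in ribosome-bound mRNA.

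Nrxn3 was the adhesion gene that marked the neuroblast stages. Its total mRNA stood at 259, 239 and 243 CPM in the 3 NSC libraries, at 1074, 1575 and 1045 in ENB, at 1023, 1196 and 664 in LNB and at 410.1, 392 and 419 in neurons. Every neuroblast library lay above every NSC and neuron library, and the neuron libraries lay above those of NSC. The rise from NSC to ENB was 5.22-fold (log2 2.38 ± 0.24, SE; edgeR adjusted p = 0.00061) and passed the threshold in every alternative run; within each of the 2 second barcode indexes used to label libraries of both stages, the log2 differences were 2.15 and 2.65. ENB and LNB overlapped (-0.35 ± 0.23, adjusted p = 0.48). The fall from LNB to neurons was 2.57-fold (-1.36 ± 0.23, adjusted p = 0.0028) and likewise held in every alternative, at -1.63 with LNB library 2 alone. Neurons stood 0.67 ± 0.23 above NSC on the log2 scale (adjusted p = 0.052).

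Ribosome-bound Nrxn3 followed another course. It stood at 309 and 202 CPM in NSC, 397 and 439 in ENB, 974, 1009 and 937 in LNB and 769 and 1016 in neurons. It rose between ENB and LNB (2.45-fold, log2 1.29 ± 0.25, edgeR adjusted p = 0.0022, also in every alternative). ENB also lay above NSC without overlap, by 0.63 ± 0.26 (adjusted p = 0.14), and LNB and neurons overlapped. The no-HA controls differed in the same direction as the SVZ and bulb precipitates, with 280.1, 375 and 415 CPM in the SVZ and 826, 764 and 698 in the bulb.

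Nrxn2, the second neurexin, rose in ribosome-bound mRNA between the 2 tissues. Its ribosome-bound level was 58.2 and 58.6 CPM in NSC, 80.4 and 44.8 in ENB, 240.0, 264 and 261 in LNB and 207 and 247 in neurons. All bulb precipitates lay above all SVZ precipitates. The rise from ENB to LNB was 4.3-fold (log2 2.10 ± 0.30, edgeR adjusted p = 0.00019) and held in every alternative. In total mRNA, Nrxn2 stood at 55.8, 57.8 and 64.6 CPM in NSC, 81.4, 109 and 80.6 in ENB, 113, 126 and 121 in LNB and 134, 77.7 and 66.3 in neurons. ENB lay above NSC and LNB above ENB without overlap, by 0.67 ± 0.26 and 0.42 ± 0.26 on the log2 scale, but neither difference passed the test (adjusted p = 0.12 and 0.44). The neuron libraries spanned the range of both neuroblast stages.

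**Figure D2:**
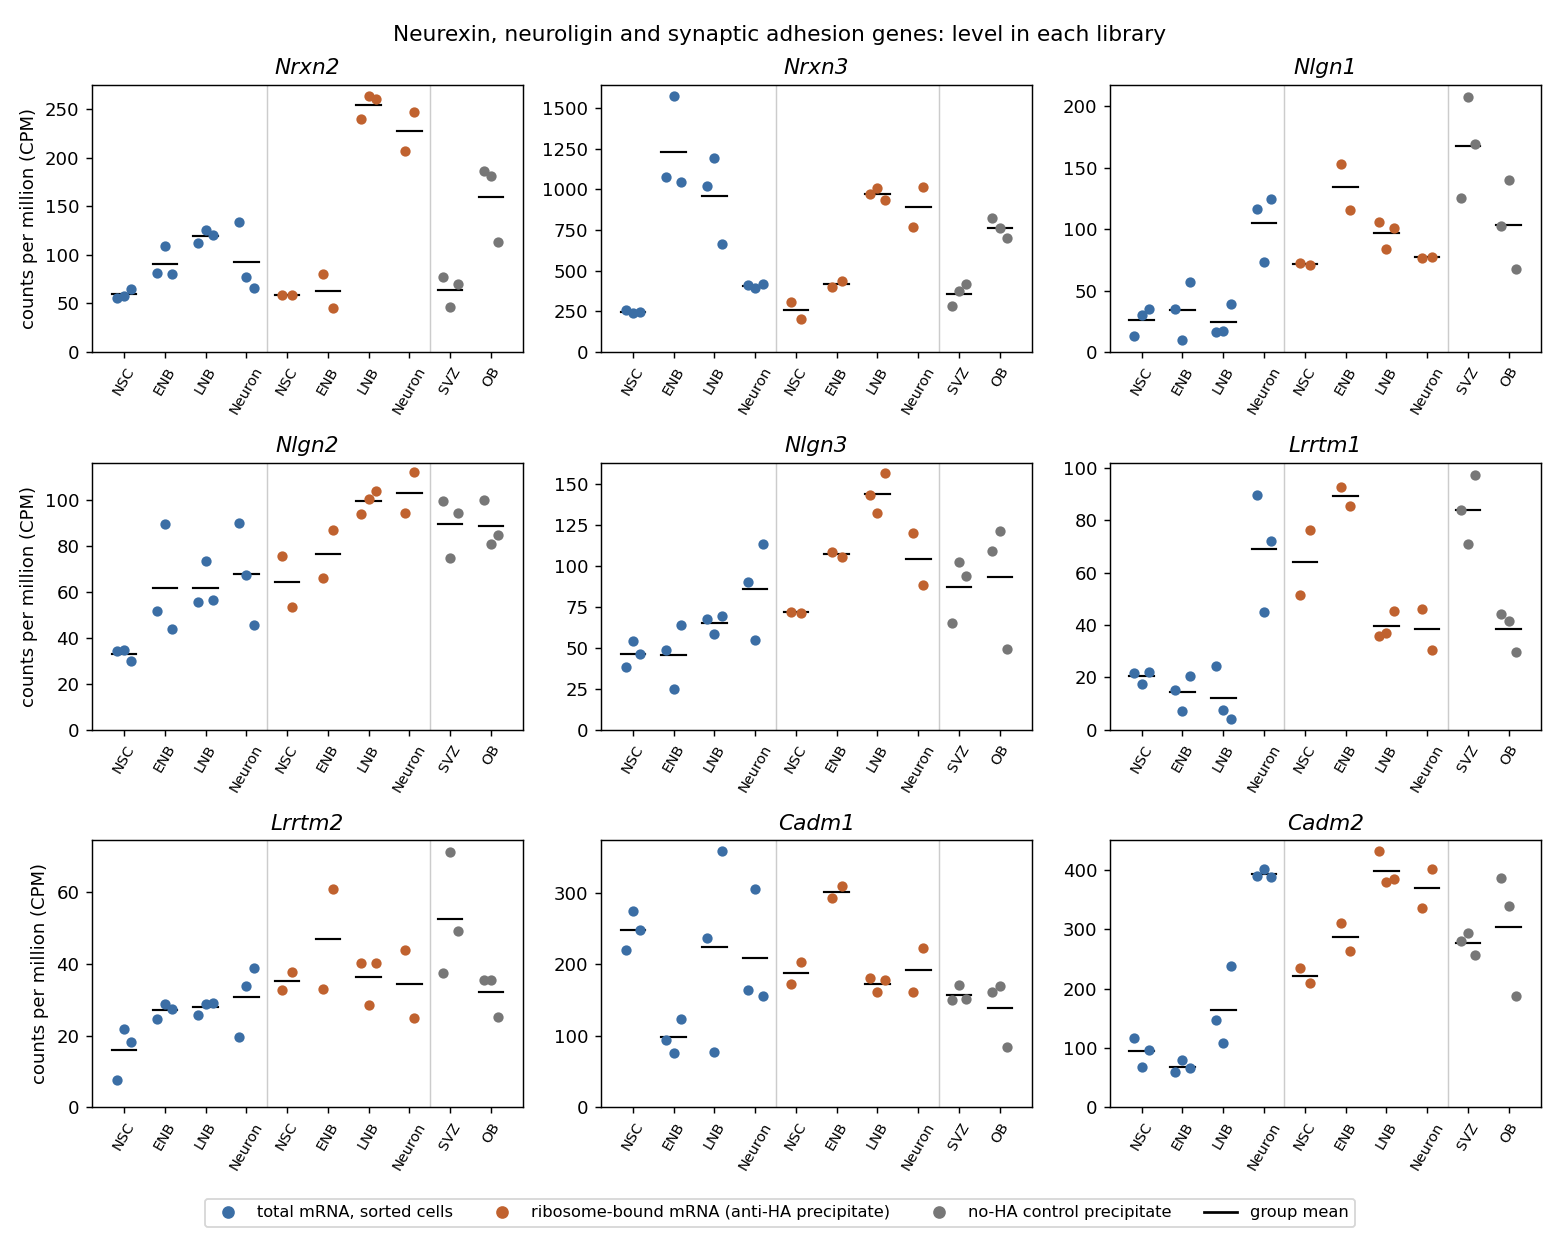
Level of each of the 9 genes in CPM (vertical axes start at 0) in the 27 libraries, by group; each point is a library and the line its group mean. Nrxn3 in total mRNA peaks in ENB and LNB, Cadm2 is highest in neurons among the total libraries.

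Among the neuroligins, Nlgn1 was low until the last stage. Its total mRNA stood at 13.3, 30.2 and 34.8 CPM in NSC, 34.7, 10.0 and 57.2 in ENB, 16.3, 17.1 and 39.4 in LNB and 116, 73.1 and 125 in neurons. All 3 neuron libraries lay above the other 9, while the first 3 stages overlapped each other. Nlgn1 was 3.92-fold higher in neurons than in LNB (log2 1.97 ± 0.60, edgeR adjusted p = 0.045) and rose by 1.96 ± 0.59 from NSC (adjusted p = 0.032). Both calls were close to the threshold. The first was lost without LNB library 1 (adjusted p = 0.15) or 2 (0.103) and without neuron library 1 (0.0899), 2 (0.0549) or 3 (0.102). The second was lost without NSC library 1 (0.103), 2 (0.0746) or 3 (0.0566) and without neuron library 1 (0.0716) or 3 (0.0776). With the barcode index as a term, the 2 values were 0.242 and 0.156. With LNB library 2 alone, the first was 2.53 on the log2 scale (adjusted p = 0.136).

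The barcode index touches every comparison with neurons, since all 3 total neuron libraries carried the same second index, shared by LNB library 2 and NSC library 2 alone in those stages. Within that index, the log2 difference between the 3 neuron libraries and the LNB library was 2.56 for Nlgn1, 3.10 for Lrrtm1, 1.87 for Cadm2 and -1.56 for Nrxn3, each in the direction of the pooled value. Against the NSC library of that index, the differences were 1.75 for Nlgn1, 0.90 for Nlgn2 and 2.51 for Cadm2. Each of these rests on a single library on the lower stage's side.

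Ribosome-bound Nlgn1 was not called at any step. It stood at 72.1 and 70.8 CPM in NSC, 153 and 116 in ENB, 106, 84.0 and 101 in LNB and 76.5 and 77.6 in neurons. ENB libraries were the highest, and neurons lay below LNB (log2 -0.33, edgeR adjusted p = 0.56). The SVZ controls held more Nlgn1 than any NSC precipitate, at 125, 208 and 169.5 CPM.

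Nlgn2, the neuroligin of inhibitory synapses, was higher at every later stage than in stem cells. Its total mRNA stood at 34.1, 34.9 and 29.7 CPM in NSC, 51.7, 89.9 and 44.1 in ENB, 55.9, 73.4 and 56.7 in LNB and 90.0, 67.7 and 45.5 in neurons. All 9 later libraries lay above the 3 NSC libraries, and the later stages overlapped each other. Neurons were 1.00 ± 0.32 above NSC on the log2 scale (edgeR adjusted p = 0.040). That call was lost when any NSC library was left out (0.0756, 0.0904 and 0.127 for 1, 2 and 3) and without neuron library 1 (0.133) or 2 (0.0755). It was also lost without the filter on low counts (0.0504), with the barcode index (0.0582) and on expected counts (0.0715). Between NSC and ENB the difference was 0.98 ± 0.32 (adjusted p = 0.071). In ribosome-bound mRNA the 9 libraries ran from 53.4 to 112 CPM, and no step passed the test.

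Nlgn3, which takes part in both kinds of synapse, did not pass the test at any step. In total mRNA it stood at 38.1, 53.9 and 46.1 CPM in NSC, 48.5, 24.7 and 64.0 in ENB, 67.6, 58.4 and 69.2 in LNB and 90.3, 54.9 and 113 in neurons. LNB overlapped ENB (log2 0.53 ± 0.35, edgeR adjusted p = 0.48), and neurons lay above NSC by a narrow margin (0.86 ± 0.35, adjusted p = 0.097). Its ribosome-bound level was highest in LNB, at 143, 132 and 156 CPM, and lowest in NSC, at 72.0 and 71.2.

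Lrrtm1, a postsynaptic partner of neurexins, was low through the first 3 stages and highest in neurons. Its total mRNA stood at 21.7, 17.5 and 22.1 CPM in NSC, 15.3, 7.27 and 20.4 in ENB, 24.2, 7.57 and 3.96 in LNB and 89.8, 45.1 and 72.3 in neurons. The neuron libraries lay above the other 9. The rise from LNB to neurons was 5.26-fold (log2 2.40 ± 0.61, edgeR adjusted p = 0.022). It was lost without LNB library 2 (0.0635), without neuron library 1 (0.0581) and with the barcode index (0.0794). The log2 value was 3.45 without LNB library 1 and 3.11 with LNB library 2 alone, where it passed the test (adjusted p = 0.0265). Ctnna2, whose locus contains Lrrtm1, stood at 103 to 259 CPM in LNB and 61.5 to 112 in neurons.

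In ribosome-bound mRNA, Lrrtm1 fell as the tissue changed from SVZ to bulb. It stood at 51.6 and 76.3 CPM in NSC, 92.9 and 85.6 in ENB, 35.9, 36.9 and 45.5 in LNB and 46.3 and 30.3 in neurons. All 5 bulb precipitates lay below all 4 SVZ precipitates. The fall from ENB to LNB was 2.15-fold (log2 -1.10 ± 0.26, edgeR adjusted p = 0.011); it was lost without ENB library 1 (0.0766) or 2 (0.0513), which leaves that stage with a single library assumed to vary like the other groups. Lrrtm2, its close relative, ran from 7.59 to 39.0 CPM in total mRNA and from 24.9 to 61.0 in ribosome-bound mRNA, and no step passed the test. Ctnna1, which contains Lrrtm2, stood at 145 to 159 CPM in total NSC and 29.1 to 31.8 in total neurons.

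Cadm2, an adhesion molecule of axons and neurons, rose at both later steps of total mRNA. Its total mRNA stood at 117, 68.8 and 97.2 CPM in NSC, 59.3, 80.0 and 67.0 in ENB, 147, 108 and 237 in LNB and 389, 401 and 388 in neurons. All LNB libraries lay above all ENB libraries, and all neuron libraries lay above all others, within 388 to 401 CPM. Between NSC and neurons it was 4.03-fold higher (log2 2.01 ± 0.31, edgeR adjusted p = 0.00081), in every alternative. The rise from LNB to neurons was 2.17-fold (1.12 ± 0.30, adjusted p = 0.028) and was lost without LNB library 1 (0.103) or neuron library 1 (0.0526), 2 (0.0615) or 3 (0.0559); with LNB library 2 alone it was 1.79 (adjusted p = 0.0134). The rise from ENB to LNB was 2.44-fold (1.29 ± 0.30, adjusted p = 0.039). It was lost when any ENB library was left out (0.145, 0.0844 and 0.143 for 1, 2 and 3), without LNB library 1 (0.0946) or 3 (0.14), with the replicate block (0.0852), with the barcode index (0.0698) and on expected counts (0.0622). Within the 2 indexes the log2 differences were 0.77 and 1.22. In LNB libraries 1, 2 and 3 Cadm2 followed the order of the summed astrocyte markers, 7257, 1160 and 10144 CPM, against 195 to 985 in ENB. With LNB library 2 alone the difference was 0.67 (adjusted p = 0.866), and the part of astrocyte RNA in this rise was not tested beyond that. The RNA gene 1700010K23Rik, which overlaps Cadm2, ran from 6.4 to 15.4 CPM in NSC and from 37.1 to 55.0 in neurons.

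Ribosome-bound Cadm2 was not called at any step. It stood at 234 and 209.6 CPM in NSC, 309.5 and 263 in ENB, 431, 379.8 and 384 in LNB and 336 and 401 in neurons. LNB lay above ENB without overlap (log2 0.55 ± 0.25, edgeR adjusted p = 0.16). The controls stood at 281, 294 and 257 CPM in the SVZ and 387, 339 and 187 in the bulb. Both NSC precipitates lay below all SVZ controls (log2 -0.28 ± 0.25, edgeR adjusted p = 0.46). In the bulb, control 3 lay below all precipitates.

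Cadm1 was high in stem cells and differed widely between replicates of the later stages. Its total mRNA stood at 220.0, 275 and 249 CPM in NSC, 94.5, 76.6 and 124 in ENB, 237, 77.3 and 359 in LNB and 164, 306 and 156 in neurons. All ENB libraries lay below all NSC libraries (log2 -1.27 ± 0.46, edgeR adjusted p = 0.10), and LNB overlapped ENB (1.23 ± 0.46, adjusted p = 0.17). With LNB library 2 alone the latter difference was -0.33 (adjusted p = 1). In the LNB libraries 1, 2 and 3 the summed astrocyte markers stood at 7257, 1160 and 10144 CPM, in the same order as Cadm1. In the neuron libraries they stood at 2457, 5990 and 1157 CPM, with Cadm1 highest in the second library too. The ENB libraries held 195, 985 and 418 CPM of these markers, where Cadm1 was lowest in the second. The part of astrocyte RNA in the Cadm1 values was not tested. As in any bulk sample, fewer cells of a type and less RNA per cell cannot be told apart.

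**Figure D3:**
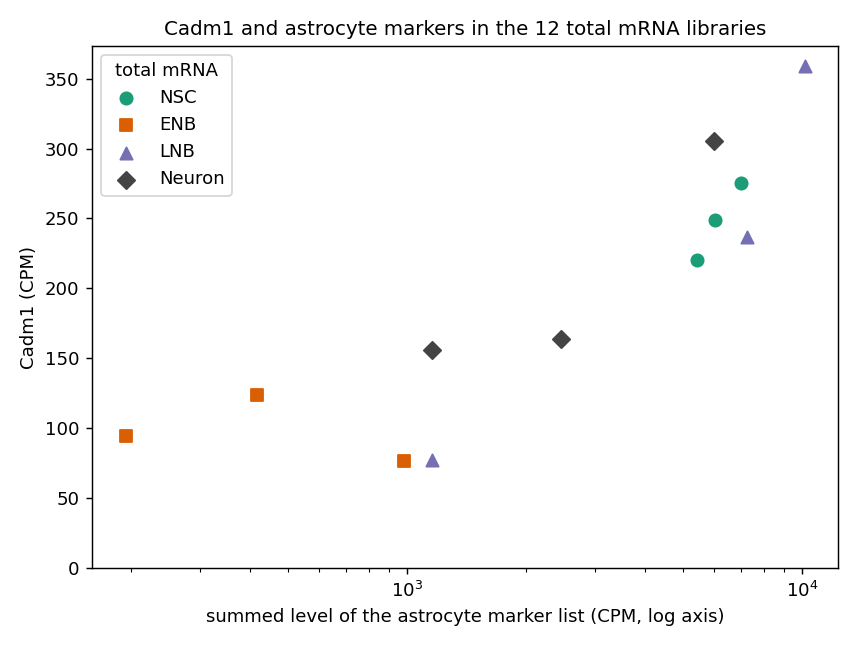
Cadm1 level in CPM (vertical axis) against the summed level of 10 astrocyte marker genes in CPM (horizontal axis, log scale) in the 12 total mRNA libraries, coloured by stage. LNB library 2, at 1160 CPM of markers, lies with the ENB libraries at a low Cadm1 level, and the other LNB libraries lie among or above those of NSC.

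In ribosome-bound mRNA, Cadm1 was highest in ENB. It stood at 173 and 203 CPM in NSC, 293 and 309.7 in ENB, 180.3, 161 and 178 in LNB and 161 and 223 in neurons. Both ENB libraries lay above all others, and above the SVZ controls at 149.6, 171 and 152 CPM. The differences were 0.59 ± 0.28 from NSC (edgeR adjusted p = 0.20), -0.73 ± 0.25 to LNB (adjusted p = 0.068) and 0.88 ± 0.25 over the controls (adjusted p = 0.10). None passed the test.

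Few of the 9 genes were called between the precipitates of a tissue and its no-HA controls. In NSC against SVZ controls, 1 gene was called, Nlgn1, which was lower in the precipitate (log2 -1.19 ± 0.28, edgeR adjusted p = 0.011), where 6.59% of all genes were lower and 15.3% were called. That call was lost without NSC precipitate 1 (0.0686) or 2 (0.0806) and with the barcode index (0.0511), and within the shared index the difference was -0.81. The ENB precipitates had 0 genes called (1.52% of all genes), the LNB precipitates 0 against bulb controls (10.1%) and the neuron precipitates 0 (27.4%). The calls over all genes behind the first 2 shares were unstable: 290 fell to 1 without ENB precipitate 2, and 1918 to 95 without LNB precipitate 3. For the 9 genes at these 3 stages, edgeR gave 1, 2 and 0 genes with an unadjusted p under 0.05, and DESeq2 called 1, 0 and 0. Over all genes, DESeq2 called 863 of 16832, 3042 of 14984 and 6434 of 19050. In LNB, Nrxn2 stood 0.71 ± 0.25 above the bulb controls (adjusted p = 0.079), Nlgn3 0.67 (0.12) and Nrxn3 0.39 (0.26), each without overlap. In neurons, Nrxn2 stood 0.55 above them (0.15). Without bulb control 3, 0 of the 9 were called at either stage, and Nlgn3 in LNB was 0.38 above the controls (0.344).

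Nrxn2, Nrxn3 and Lrrtm1, the 3 genes called between the ENB and LNB precipitates, were also the 3 called between the bulb and SVZ controls. In the bulb controls Nrxn2 was higher by 1.30 ± 0.25 (edgeR adjusted p = 0.0024) and Nrxn3 by 1.08 ± 0.21 (0.0025), and Lrrtm1 was lower, at -1.14 ± 0.24 (0.0043), where 5.65% of all genes were higher, 6.12% lower and 11.8% called. The Nrxn2 call was lost with the barcode index (0.054). Between the precipitates the values were 2.10, 1.29 and -1.10. Within the indexes shared by both sides, the precipitates differed by 1.66, 1.29 and -1.24 (3 LNB libraries against 1 ENB library) and the controls by 0.68, 0.75 and -1.71 (1 against 1). When the difference between controls was subtracted from that between precipitates in 1 model, the remainder was 0.81 ± 0.38 for Nrxn2 (adjusted p = 0.40), 0.21 ± 0.32 for Nrxn3 (0.83) and 0.04 ± 0.36 for Lrrtm1 (0.98). On that measure 0 of the 9 were called, against 0.399% of all genes; 1 had an unadjusted p under 0.05 in edgeR and DESeq2 called 0. The 76 calls over all genes behind that share became 0 with RLE scaling and 789 with the barcode index, and the index fit called Nrxn2 (1.09, adjusted p = 0.049). LNB and ENB precipitates come from different tissues, so stage and tissue cannot be told apart in their direct comparison.

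**Figure D4:**
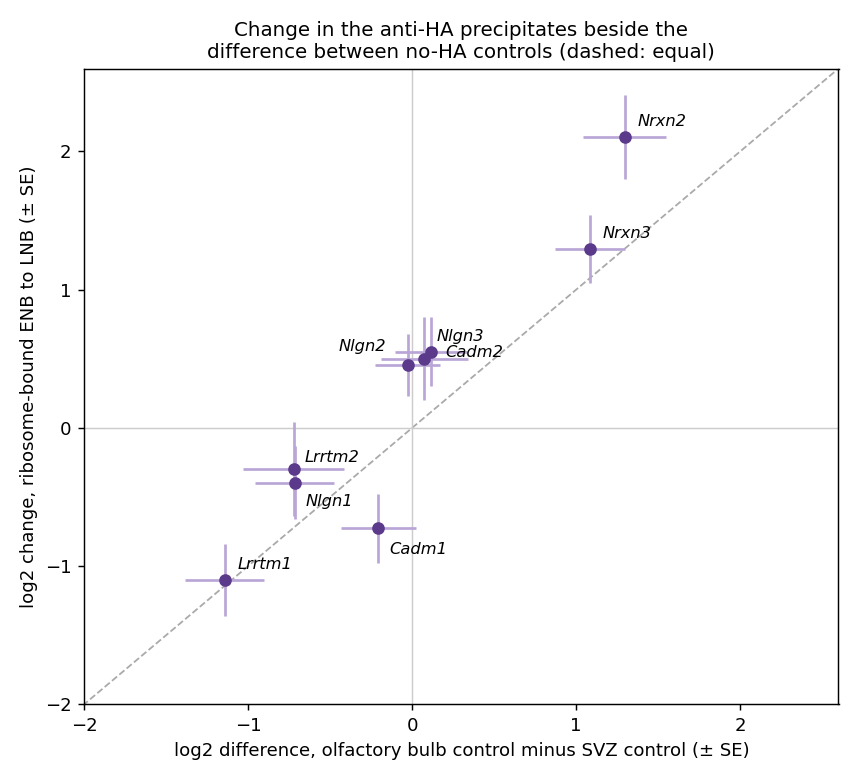
Log2 change from ENB to LNB in the anti-HA precipitates (vertical axis) against the log2 difference between bulb and SVZ no-HA controls (horizontal axis), each with its standard error, for the 9 genes; the dashed line marks equal values. Lrrtm1 lies on the line at -1.10 and -1.14, Nrxn3 near it, and Nrxn2 above it at 2.10 and 1.30.

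The ribosome-bound course was then set against that of total mRNA in a model over both kinds of library, which tests whether the 2 changes differ. From NSC to ENB, 1 of the 9 was called (2.81% of all genes): the ribosome-bound change of Nrxn3 was 1.60 ± 0.34 lower than its total change on the log2 scale (edgeR adjusted p = 0.018). From ENB to LNB, 3 were called (6.15%): Nrxn2 at 1.57 ± 0.37 (0.019), Nrxn3 at 1.53 ± 0.33 (0.012) and Cadm1 at -2.07 ± 0.58 (0.039). From LNB to neurons, 1 was called (3.15%): Nrxn3 at 1.23 ± 0.32 (0.043). The total libraries came from sorted cells and the precipitates from whole tissue, so these values hold that difference as well, and its part in them was not tested.

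Each of these calls was lost when some library was left out. The NSC to ENB value of Nrxn3 was lost without NSC precipitate 1 (0.102) or ENB precipitate 1 (0.102) or 2 (0.0503). Its ENB to LNB value was lost without ENB precipitate 1 (0.0677), and that of Nrxn2 without ENB precipitate 2 (0.115) or LNB precipitate 2 (0.0523). The Cadm1 value was lost in 9 of 11 fits that left out a library, at 0.0757 to 0.121, and the LNB to neuron value of Nrxn3 in 10 of 11, at 0.0544 to 0.30. The latter was also lost with RLE scaling (0.0655), without the filter (0.0783), with the replicate block (0.0737) and on expected counts (0.0738). With the barcode index as a term, the first 4 were 0.127 (Nrxn3, NSC to ENB), 0.125 (Nrxn2), 0.0509 (Nrxn3) and 0.171 (Cadm1). With LNB library 2 alone, the ENB to LNB values were 1.59 for Nrxn2 (adjusted p = 0.147), 1.30 for Nrxn3 (0.102) and -0.41 for Cadm1 (0.885), none past the threshold, and the LNB to neuron value of Nrxn3 was 1.57 (0.0144). That fit also called Lrrtm1 (-3.09) and Cadm2 (-1.84) from LNB to neurons.

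Levels between genes were compared per length and per library, in the deposited TPM, a unit that divides reads by transcript length. Nrxn3 made up 27.1% ± 2.0 (SD, n = 3) of the summed TPM of the 9 genes in total NSC, 70.8% ± 7.2 in ENB, 55.8% ± 13.6 in LNB and 22.1% ± 0.4 in neurons. Cadm1 made up 39.8% ± 2.5, 9.1% ± 4.2, 17.7% ± 10.2 and 29.3% ± 11.4 in the same order. Cadm1 thus had the largest mean share in stem cells and Nrxn3 in both neuroblast stages. Of the neuroligins, Nlgn3 had the largest mean share at every stage in total mRNA, at 59.5%, 47.6%, 63.4% and 44.6%, while Nlgn1 went from 9.2% in LNB to 29.6% in neurons. The LRRTM pair summed to 13.5 TPM in LNB and 50.5 in neurons, and Lrrtm1 made up 46.9% and 82.9% of it.

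The mean count and the mean TPM of a gene did not move together for Nrxn3, Nlgn3 and Cadm2, a comparison chosen after the values were seen. Cadm2 went from a mean of 94.5 to 393 CPM between NSC and neurons in total mRNA, but from 34.5 ± 11.2 to 61.5 ± 6.03 TPM (SD, n = 3). TPM divides the estimated count by the length of the transcripts it is assigned to, so the ratio of count to TPM changes with that length. It also holds any difference between the deposited counts and the estimated counts behind the TPM, which was not tested. Relative to the median of the 8773 genes with at least 1 TPM in every library, the Cadm2 ratio was 1.74 in total NSC, 1.58 in ENB, 2.38 in LNB and 4.11 in neurons, with ranges of 1.55 to 1.98 in NSC and 3.98 to 4.31 in neurons. The neuron value was 2.37 times that of NSC, a change above that of 99.6% of those genes. In ribosome-bound mRNA the ratio was 3.05 in NSC, 3.08 in ENB, 4.14 in LNB and 4.20 in neurons.

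Nrxn3 showed the same kind of difference between the 2 kinds of library. Its ratio was 1.31, 1.37, 1.34 and 2.08 in total NSC, ENB, LNB and neurons, and 2.39, 1.97, 2.50 and 2.49 in ribosome-bound mRNA, with 1.90 (range 1.35 to 2.78) and 1.84 (1.34 to 2.11) in SVZ and bulb controls. In LNB the ribosome-bound ratio was 1.88 times that of total mRNA, above 99.2% of genes. For Nlgn3 the ratio, averaged on the log2 scale, rose 1.58 times from total LNB to neurons, above 97.9% of genes. Its libraries overlapped, at 0.52 to 1.80 in LNB and 1.19 to 2.18 in neurons. The mean CPM was 65.0 and 86.1, and the mean TPM 46.3 ± 30.0 and 32.9 ± 2.11 (SD). The Nrxn3 windows printed above belong to 2 of its annotated starts, and transcript-level values were not used here. Nrxn3 in LNB stood at a mean of 452 TPM in total and 211 TPM in ribosome-bound mRNA, while its CPM overlapped between them.

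**Figure D5:**
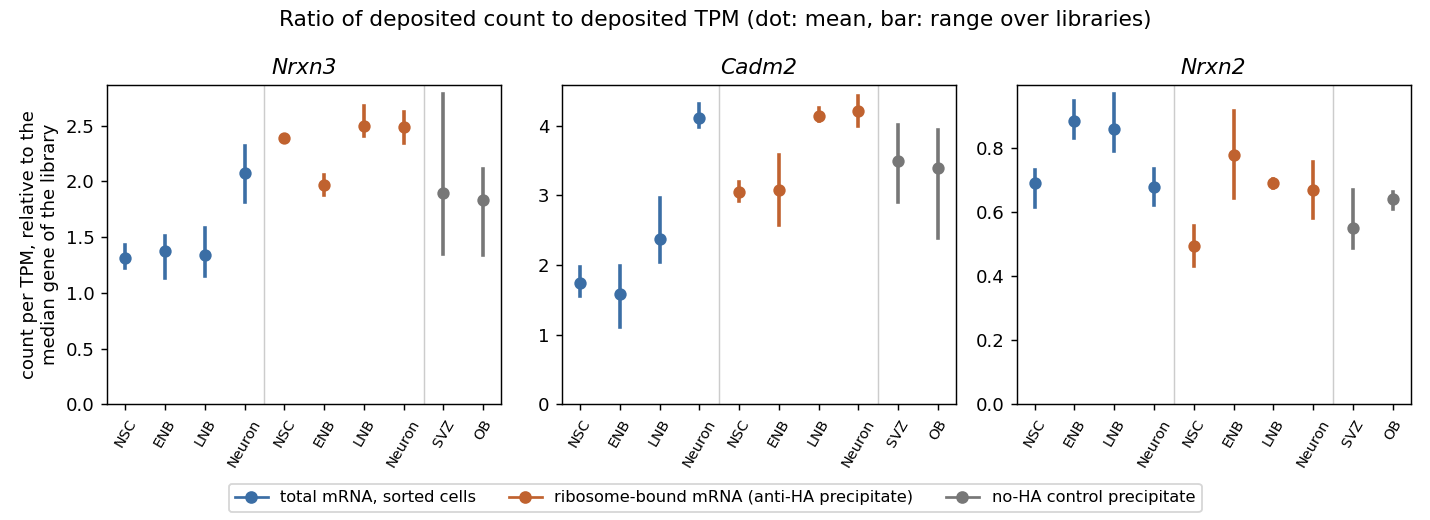
Ratio of deposited count to deposited TPM, relative to the median gene of the library (vertical axis, from 0), for Nrxn3, Cadm2 and Nrxn2 in the 10 groups; dots are means and bars the range over libraries. The ratio of Cadm2 rises from 1.74 in total NSC to 4.11 in total neurons, and that of Nrxn3 lies between 1.31 and 1.37 in the first 3 total stages and at 1.84 or more in all other groups.

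For each gene, those most like it were taken by Pearson's r of mean log2 CPM over the 10 groups, among 20682 genes; the groups share libraries' tissue and depth, and the values are a description. Nrxn3 was most like Dlgap4, a postsynaptic scaffold gene (r = 0.958), and Soga3 (0.953). Cadm2 was most like Cntnap2, a neurexin-related adhesion gene (0.993), and its overlapping neighbour 1700010K23Rik (0.990). Nlgn1 was most like Shisa7 (0.987) and Osbp2 (0.986), Nlgn2 like Celf2 (0.972) and Tanc2 (0.971), and Nlgn3 like Btrc (0.969) and Macrod2 (0.962). Lrrtm1 was most like Dbpht2 (0.986) and Cdh13 (0.982), Lrrtm2 like Rnf150 (0.976) and Phactr3 (0.962), and Nrxn2 like Tshz1 (0.970) and Ipo13 (0.963). Cadm1 had the weakest neighbours, Elmod3 (0.944) and Lgmn (0.874). Within the group, Nlgn1 and Lrrtm1 were alike (0.92), as were Nlgn3 and Cadm2 (0.92), while Nrxn3 and Cadm1 ran opposite (-0.57).

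The other genes of the synaptic adhesion pathway were taken from lists. They held 38 other adhesion genes, 16 secreted or surface ligands, 20 postsynaptic and 17 presynaptic scaffold genes and 13 regulators of splicing or shedding. At the first step, NSC to ENB, 5 of 38 adhesion genes rose and 1 fell (median log2 change 0.33, against -0.01 for all genes, of which 10.1% were called). Of the scaffolds, 4 of 20 postsynaptic genes rose and 0 fell (median 0.43), and 6 of 17 presynaptic genes rose and 1 fell (0.45). Of 14 tested ligands 1 rose and 3 fell, and of 13 splicing and shedding genes 1 rose and 1 fell. Slitrk3, a postsynaptic adhesion gene, rose from 10.5 ± 6.70 to 78.1 ± 14.7 CPM (SD, n = 3; log2 2.98 ± 0.50, edgeR adjusted p = 0.0049). The teneurin Tenm4 went from 16.2 ± 0.85 to 96.3 ± 9.79 CPM (2.64 ± 0.26, adjusted p = 0.00055). The liprin Ppfia2, a presynaptic scaffold, went from 12.9 ± 2.67 to 78.7 ± 7.60 CPM and Dlgap4 from 87.8 ± 18.5 to 297 ± 61.9 CPM. Khdrbs3 (SLM2), known to control a splice site of neurexin transcripts, rose with Nrxn3 from 23.1 to 90.9 CPM (2.04 ± 0.30). These 5 passed the threshold in every alternative. The counts called moved with single libraries, to 3 adhesion genes without ENB library 1, 1 postsynaptic gene without NSC library 1 and 3 presynaptic genes without NSC library 2.

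From LNB to neurons, 7 of 38 adhesion genes rose and 2 fell (median 0.56, against -0.18 for all genes, of which 14.7% were called). Postsynaptic scaffolds had 2 up and 1 down of 20 (0.74), and presynaptic scaffolds 8 up and 2 down of 17 (1.14). Of the genes named by rule, Slitrk4 went from 11.5 to 96.3 CPM (log2 2.95 ± 0.51, edgeR adjusted p = 0.0030). The scaffolds Dlg2 (PSD-93), Iqsec3 and Lin7a went from 11.1 to 136, from 14.7 to 212 and from 12.1 to 118 CPM. Rbfox3 (NeuN), a splicing factor of mature neurons, went from 12.1 to 110 CPM, and Khdrbs3 fell from 71.1 to 27.3 CPM (-1.50 ± 0.30, adjusted p = 0.0064), again with Nrxn3. All of these except Slitrk4 held in every alternative. Of the ligands 2 rose and 1 fell, and of the splicing and shedding genes 2 rose and 4 fell. Without neuron library 3, 6 adhesion genes were called, and without LNB library 1, 5 presynaptic genes. DESeq2 called 17 adhesion, 14 presynaptic and 10 postsynaptic genes, in a fit that called 3873 of all 17481 genes. With LNB library 2 alone, Slitrk4 was lost (0.0853) and 5 presynaptic genes were called. From ENB to LNB, where 3.77% of all genes were called, 1 adhesion gene rose and 1 fell of 38, and 1 ligand, 1 postsynaptic and 1 presynaptic scaffold gene rose. Without LNB library 2, 6 adhesion genes were called, with the replicate block or LNB library 2 alone 0, and DESeq2 called 6 ligands; calls over all genes went from 663 to 1643 without LNB library 2 and to 8 with it alone.

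Between NSC and neurons, 18 of 38 adhesion genes rose and 0 fell (median 1.34, against -0.06 for all genes, of which 23.7% were called), with 13 to 21 called over the alternatives. Postsynaptic scaffolds had 11 up and 0 down of 20 (1.39), presynaptic scaffolds 10 up and 2 down of 17 (2.52), and splicing and shedding genes 3 up and 2 down of 13 (0.25). Of the ligands 5 rose and 0 fell. Without NSC library 2, 13 adhesion and 8 postsynaptic genes were called. Ntng1 (netrin-G1), an axonal adhesion gene, went from 2.76 to 93.4 CPM (log2 5.02 ± 0.52, edgeR adjusted p = 8.4e-05).

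Between the ribosome-bound ENB and LNB libraries, 4 of 38 adhesion genes rose and 7 fell, and 6 of 20 postsynaptic scaffolds rose and 0 fell, where 6.81% of all genes rose and 6.05% fell. Of 16 ligands 6 rose and 3 fell, of 17 presynaptic scaffolds 4 rose and 4 fell, and 1 splicing or shedding gene rose. Without ENB precipitate 1, 2 postsynaptic genes, 3 ligands and 3 presynaptic genes were called. The genes named by the rule moved alike in the no-HA controls, which share the change of tissue. The log2 values in precipitates and in controls were 4.30 and 3.59 for Cbln2, a secreted neurexin ligand, and -4.07 and -3.30 for the latrophilin Adgrl2. They were -1.74 and -2.52 for Flrt3, a latrophilin ligand and 1.85 and 2.22 for the scaffold gene Dlgap1. When the control difference was subtracted, 0 genes of any of the 5 lists were called, against 0.399% of all genes. With so few calls over all genes, that 0 says little about the lists.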

How the data were processed

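RNA was sequenced in 27 libraries of 10 groups (Smart-seq2 with an oligo(dT) primer, unstranded Nextera XT kit, per the labels' protocols). Counts per gene were used as the authors deposited them; the counting tool is not given in the sources used here. The authors also deposited expected counts and TPM values; the submitters' processing notes name RSEM 1.2.21, Bowtie2 2.2.6 and GRCm38. Of 45195 gene IDs, 44548 matched a symbol. Total counts ran from 5225929 to 15994635, and their number limits the precision of low genes. Groups followed the sample titles. The members and gene lists were chosen with earlier results of these data known.

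CPM were scaled by TMM factors over all libraries. edgeR 4.0.16 (R 4.3.3, limma 3.58.1; TMM, filterByExpr, quasi-likelihood, Benjamini-Hochberg at 0.05 over all tested genes) was fitted to 12 total libraries (17592 genes), 15 precipitates (19066) and 21 total and ribosome-bound libraries (19913), with 16 comparisons, and tested on simulated data. Alternatives were relative log expression (RLE) scaling, no filter, DESeq2 1.42.0, the replicate number as a block, the second barcode index as a term, rounded expected counts, a block on shared animals, leaving out each library and, added after the data were seen, LNB library 2 as the only total LNB library. All 9 genes are named in each comparison. From each of 5 pathway lists, up to 3 called genes with the largest change and no overlap between groups could be named; the examples given passed the threshold in every alternative, except Slitrk4. The check of pairing is in the closing section; in the ribosome-bound neuroblasts the numbers 1 and 2 mark shared animals.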

Additional observations from a re-analysis of the deposited data

Results flagged for a closer look

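In 5 cases the change of a gene's ribosome-bound mRNA differed from the change of its total mRNA by an interaction test in edgeR. From NSC to ENB the difference was -1.60 on the log2 scale for Nrxn3, which rose in total mRNA. From ENB to LNB it was 1.57 for Nrxn2 and 1.53 for Nrxn3, which rose in ribosome-bound mRNA, and -2.07 for Cadm1. These 3 were not past the threshold with LNB library 2 as the only total LNB library, where Cadm1 was at -0.41. From LNB to neurons it was 1.23 for Nrxn3, which fell in total mRNA. Total and ribosome-bound libraries differ in their source, sorted cells against whole tissue, and what that contributes was not tested.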

How the results depend on the processing

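Of 144 values (9 genes in 16 comparisons), 21 were called; 0 of these changed sign under an alternative and 7 stayed past the threshold in every one. Of the 123 others, 49 changed sign in some alternative, the largest being Cadm1 from ENB to LNB at 1.23, and 22 passed the threshold in some. Of 152 values of named pathway genes, 56 passed in every alternative, and 61 of 80 counts of called list genes moved by over 1.5 times in some. RLE scaling moved the median of all genes by 0.16 from LNB to neurons, 0.12 from NSC to neurons, -0.14 from ribosome-bound ENB to LNB, -0.16 in LNB against bulb controls and -0.17 in ENB to LNB relative to controls. It moved the share of rises among all calls from 36.3% to 48.4%, from 52.9% to 40.2% and from 69.6% to 46.5% from LNB to neurons, from ribosome-bound ENB to LNB and in LNB against bulb controls.

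The number of the 9 genes called depended on the settings as follows. From NSC to ENB in total mRNA (1), DESeq2 called 3, in a fit that called 3358 of all 17140 genes. From ENB to LNB (1), the replicate block, the barcode index and expected counts each called 0, and leaving out a library 0 to 2; LNB library 2 alone also called 0. From LNB to neurons (4), the index called 2, and leaving out a library 2 to 4. From NSC to neurons (3), RLE scaling called 5, DESeq2 8, the index 1, and leaving out a library 1 to 2. Over all genes, RLE scaling called 4156 of 17592 there and DESeq2 5539 of 17481, against 4175 of 17592 in edgeR with TMM. In ribosome-bound NSC to ENB (0), DESeq2 called 2, and over all genes 2914 of 17941, against 1579 of 19066 in edgeR. In NSC against SVZ controls (1), the index called 0, and leaving out a library 0 to 1. In ENB against SVZ controls (0), no filter and DESeq2 each called 1, and over all genes 636 of 29966 and 863 of 16832. In neurons against bulb controls (0), the index called 3, and in ENB to LNB relative to controls (0) it called 1. For ribosome-bound relative to total mRNA, NSC to ENB (1) gave 2 with no filter, 2 with DESeq2, 0 with the index and 0 to 1 without a library. Over all genes, no filter called 588 of 30027 there and DESeq2 1568 of 17506. ENB to LNB (3) gave 0 with the index, 0 with LNB library 2 alone and 1 to 3 without a library; of the pathway genes, the ligand Gpc4 reversed with LNB library 2 alone, from -6.28 to 0.26. LNB to neurons (1) gave 0 with RLE scaling, the replicate block and expected counts, 2 with no filter, 4 with DESeq2, 3 with LNB library 2 alone and 0 to 3 without a library, and the index fit was not run because it could not be estimated. Over all genes, that last comparison gave 645 calls of 30027 with no filter and 1740 of 17890 with DESeq2. The share of all genes is not given here for the other fits. The cause was not tested.

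Deviations of same-numbered libraries correlated at -0.114 to 0.055 over 18 pairs of total libraries, -0.011 to 0.084 over 12 ribosome-bound pairs and -0.028 to 0.081 over 3 pairs of controls. Between groups of 2 libraries the deviations mirror each other, so some of the ribosome-bound values repeat. The ribosome-bound ENB and LNB pairs that share animals gave 0.084 and -0.011. Known pairs thus lie in the same range, and these values cannot show whether the other numbers tie samples together. In ribosome-bound ENB and LNB, where the numbers mark shared animals, the block changed none of the 9 calls. Lrrtm1, with as few as 25 counts in a library, and Nlgn1, with as few as 87, are the genes most limited by depth.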

Other observations

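The make-up of the neurexin pair was set side by side in the 2 kinds of library. Nrxn3 made up 68.6%, 89.6%, 83.2% and 59.9% of the summed TPM of Nrxn2 and Nrxn3 in total NSC, ENB, LNB and neurons, and 46.7%, 72.1%, 51.3% and 51.1% in ribosome-bound mRNA. It made up 61.9% in SVZ controls (range 39.5% to 74.5%) and 63.0% in bulb controls (57.0% to 73.7%). The count to TPM ratio of Nrxn3 was 1.88 times higher in ribosome-bound than in total LNB. Its part in these shares was not tested. In neurons the libraries overlapped, at 47.6% to 66.7% in total and 47.7% to 54.4% in ribosome-bound mRNA. The summed TPM of the 3 neuroligins had means of 41.0, 49.8, 68.7 and 74.5 in the same order of total mRNA. That of Cadm1 and Cadm2 had means of 208, 94.6, 195 and 234. The LNB libraries spread widely, at 44.57 to 103 TPM for the neuroligins and 74.15 to 297 for Cadm1 and Cadm2. Those of ENB ran from 41.7 to 55.6 and from 89.3 to 103 TPM. The difference between total and ribosome-bound libraries was not tested for the shares.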
